A study of Mus musculus with 14 samples.

Results

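The serpins are a family of protease inhibitors, and the mouse genes of the family were described here across every culture and tissue of a study on liver assembloids. Members were all genes of the count table whose symbol is Serpin, a clade letter from a to i, a number and, in many genes, a further letter, which gave 63 of 28022 genes, of which 62 are described and enter the counts, sums and shares. By clade letter, 25 members were in clade A, 27 in clade B, 2 each in clades E, F and I, and 1 each in clades C, D, G and H. RNA was sequenced from 14 libraries, 2 in each of 7 conditions, all labelled with the C57BL/6J mouse strain. Fib were mouse embryonic fibroblasts, the starting cells, and they carried no added factor. The 4 cultures all contained induced hepatic stem cells (iHepSCs), which were made from such fibroblasts by lentiviral delivery of Oct4 and Hnf4α, and all 4 were kept in the same mixed hepatic and endothelial medium with oncostatin M. Before that, the iHepSCs of the organoids and assembloids formed spheroids in hepatic medium, and these cultures were later kept on a shaker. 2D-iHs were iHepSCs on collagen-coated plates, 2D-iHEs were iHepSCs on such plates together with induced endothelial cells (iECs), iHLOs were organoids of iHepSCs alone in a hydrogel of Matrigel and collagen, and iHEAs were assembloids in which iECs were added to such organoids. The labels call the iHLO samples 3D-iHA, and they were matched to the iHLOs of the study through its text. The iECs came from a human fibroblast line converted with human ETV2, so a human read counted only where it aligned to a mouse gene. The references were liver of adult mice, given as 6 weeks old, and liver of mid-gestation fetal mice. The methods call the adult mice male in the section on qRT-PCR, and the section on sequencing gives no sex. Both adult liver libraries had *Xist* counts (14646 and 16368) and 0 counts of *Ddx3y*, *Eif2s3y*, *Kdm5d* and *Uty*, and the tissue is given here without a sex. The sample descriptions all read replicate 1, whereas the titles number the samples of a condition 1 and 2. The second iHEA column of the count table repeats the title number of the first, so its condition is clear but its sample is not; it is called iHEA 2 here, and the n of 2 for iHEAs rests on the column names. Nothing states that the 2 libraries of a condition came from separate cultures or animals, so p-values measure the spread between these libraries, which may be technical.

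A serpin presents an exposed loop to its target protease, and cleavage of the loop traps the protease in a stable complex. The secreted serpins of clades A, C, D, F and G are best known as plasma proteins made by hepatocytes, where they restrain neutrophil elastase, coagulation, plasmin and complement, and a few have become hormone carriers that inhibit nothing. Clade B serpins stay in the cytosol and nucleus and protect cells from granzymes, granule proteases and cathepsins, clade E serpins restrain proteases outside the cell, and *Serpinh1* is a collagen chaperone of the endoplasmic reticulum.

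The genes of the largest clades lay in 3 clusters of the GRCm38 genome, as annotated by GENCODE. The clade A members, all but the X-linked *Serpina7*, numbered 24 between positions 103614786 and 104414329 of chromosome 12, over 799.5 kb. Clade B was split between 12 members on chromosome 1, from 106861173 to 107610484, and 15 members on chromosome 13, from 32842092 to 34002794. Of the chromosome 12 cluster, 6 members had more than 3 counts in any culture library, against 7 of 12 in the chromosome 1 cluster and 14 of 15 in the chromosome 13 cluster.

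The promoters of 2 sets of members are shown to set genes of 2 clusters side by side: 5 clade B genes of chromosome 1, and the *Serpina1* genes, which were read in liver. Of the first set, *Serpinb5*, *Serpinb7* and *Serpinb11* were read mainly in cultures, *Serpinb8* was at a like level in Fib and 2D cultures, and *Serpinb2* was highest in fetal liver. Sequences are from RefSeq (GRCm38.p6), run 5′ to 3′ on the strand of the gene and end at the last base before the annotated start. RefSeq promoters were matched for 53 of 62 members. In the first set, of 200 bases each, capitals mark the letters TGANTCA on either strand, where N is any base. This is looser than TGAGTCA or TGACTCA, the core that AP-1 factors are known to bind. The capitals hold that core in *Serpinb7* and *Serpinb8* alone. The match lay 140 bases before the start in *Serpinb5* (chr1:106860975-106861174, + strand), 45 bases before it in *Serpinb7* (chr1:107422489-107422688, + strand), 181 and 76 bases before it in *Serpinb11* (chr1:107362114-107362313, + strand), 94 bases before it in *Serpinb2* (chr1:107511223-107511422, + strand) and 23 bases before it in *Serpinb8* (chr1:107589806-107590005, + strand), counted to the first base of the match.
Serpinb5: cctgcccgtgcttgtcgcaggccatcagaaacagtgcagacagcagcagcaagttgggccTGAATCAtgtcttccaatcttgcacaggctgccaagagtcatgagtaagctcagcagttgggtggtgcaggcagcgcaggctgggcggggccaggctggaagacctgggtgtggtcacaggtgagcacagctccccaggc
Serpinb7: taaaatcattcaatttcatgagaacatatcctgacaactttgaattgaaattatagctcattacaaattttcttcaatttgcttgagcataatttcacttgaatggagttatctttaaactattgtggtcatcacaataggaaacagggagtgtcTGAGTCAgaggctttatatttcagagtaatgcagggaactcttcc
Serpinb11: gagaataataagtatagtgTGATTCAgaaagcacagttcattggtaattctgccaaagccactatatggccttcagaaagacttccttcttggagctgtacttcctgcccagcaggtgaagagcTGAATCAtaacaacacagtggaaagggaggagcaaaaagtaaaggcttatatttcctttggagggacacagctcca
Serpinb2: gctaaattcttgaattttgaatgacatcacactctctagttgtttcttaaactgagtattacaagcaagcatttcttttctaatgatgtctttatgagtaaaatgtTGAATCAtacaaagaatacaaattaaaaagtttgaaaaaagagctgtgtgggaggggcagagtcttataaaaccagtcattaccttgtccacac
Serpinb8: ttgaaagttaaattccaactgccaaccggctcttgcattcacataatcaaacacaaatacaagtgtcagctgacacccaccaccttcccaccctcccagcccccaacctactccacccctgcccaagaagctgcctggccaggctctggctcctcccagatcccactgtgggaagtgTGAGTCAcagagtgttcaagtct

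In the second set, of 150 bases each, capitals mark the letters GTTAAT, the conserved part of the site known for the hepatic factor HNF1. The match lay 21 bases before the start in *Serpina1a* (chr12:103863620-103863769, − strand), 26 bases before it in *Serpina1b* (chr12:103738190-103738339, − strand), 27 bases before it in *Serpina1c* (chr12:103904951-103905100, − strand), 16 bases before it in *Serpina1d* (chr12:103773634-103773783, − strand) and 78 bases before it in *Serpina1e* (chr12:103956898-103957047, − strand). The 5 windows share an identical run of 55 bases that holds the match.
Serpina1a: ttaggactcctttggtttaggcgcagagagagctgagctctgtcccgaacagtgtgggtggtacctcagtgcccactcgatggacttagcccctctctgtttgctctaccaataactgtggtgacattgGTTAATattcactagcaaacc
Serpina1b: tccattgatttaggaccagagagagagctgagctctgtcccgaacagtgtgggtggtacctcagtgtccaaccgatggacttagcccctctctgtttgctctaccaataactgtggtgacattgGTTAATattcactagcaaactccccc
Serpina1c: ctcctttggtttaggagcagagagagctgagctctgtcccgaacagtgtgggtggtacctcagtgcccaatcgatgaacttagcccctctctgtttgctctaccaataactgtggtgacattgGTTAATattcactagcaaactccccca
Serpina1d: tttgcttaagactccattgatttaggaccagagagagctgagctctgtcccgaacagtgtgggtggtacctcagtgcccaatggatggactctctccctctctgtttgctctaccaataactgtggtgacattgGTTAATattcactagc
Serpina1e: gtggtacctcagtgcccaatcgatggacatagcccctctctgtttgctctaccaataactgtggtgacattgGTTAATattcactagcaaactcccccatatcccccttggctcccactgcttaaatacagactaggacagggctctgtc

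Both motifs were searched on both strands of the 250 bases before the start; neither motif contains the other. TGANTCA was found in 7 of 11 clade B promoters of chromosome 1, in 0 of 14 of chromosome 13 and in 4 of 19 clade A promoters (*Serpina1a* to *Serpina1d*), beside 7.82% of 27025 promoters of all genes. GTTAAT was found in 7 of 19 clade A promoters, in 3 of 11 clade B promoters of chromosome 1 and in 0 of 14 of chromosome 13, beside 7.49% of all promoters. The longer HNF4 letters CAAAGTCCA were found in 0 member promoters and in 0.451% of all promoters. These are matches of letters in a window, chosen for display after they were seen, and binding was not measured.

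The whole family was a different mixture in each kind of sample, measured as reads, of which long genes give more. Its summed level was 2542 and 2633 counts per 1000000 counts of the library (CPM) in Fib, 1821 to 1982 CPM in the 4 2D libraries, 786 to 898 CPM in the 4 3D libraries (iHLOs and iHEAs), 48170 and 48520 CPM in adult liver and 4842 and 5126 CPM in fetal liver. Fib, the 2D cultures and the 3D cultures did not overlap, and both livers were above all of them. Of the summed level in Fib, *Serpinh1* took 55.6% and *Serpinf1* 19.4%. In 2D-iHs the leading genes were *Serpinb9b* with 34.5%, *Serpinb6a* with 31.7% and *Serpinh1* with 14.3%. In iHLOs *Serpinb6a* took 47.5% and *Serpinb1a* 21.3%, and in iHEAs *Serpinb6a* took 44.2% to 45.7% and *Serpinb1a* 21.3%. In adult liver *Serpina6* took 26.9% and *Serpina3k* 17.4%, and in fetal liver *Serpina6* took 38.0% and *Serpinf2* 15.6%. These are bulk libraries, in which fewer cells of a type and less RNA per cell cannot be told apart.

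**Figure D1:**
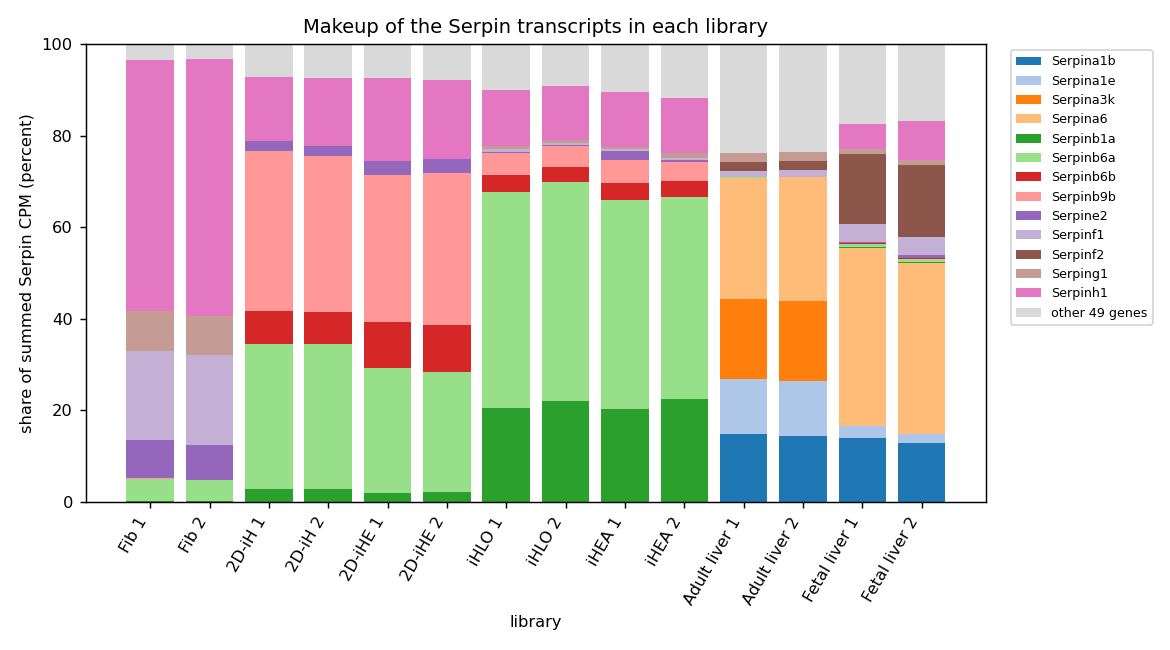
Share of the summed serpin CPM taken by each of 13 genes and by the other 49 members together, in percent (vertical axis), for each of the 14 libraries. The leading gene is *Serpinh1* in Fib (55.6%), *Serpinb9b* in 2D-iHs (34.5%) and *Serpinb6a* in iHLOs (47.5%), and *Serpina6* leads in both livers.

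Per kb of merged exon, the highest mean levels in 2D cultures were 190.1 CPM per kb for *Serpinb9b*, 124 CPM per kb for *Serpinh1* and 103 CPM per kb for *Serpinb6a*. In 3D cultures the order of levels was *Serpinb1a* with 76.0 CPM per kb, *Serpinb6a* with 70.3 CPM per kb and *Serpinh1* with 40.3 CPM per kb. This order depends on the length used, since *Serpinb6a* has 5409 bases of merged exon and 2191 bases in its longest transcript. Per kb of the longest transcript *Serpinb6a* came first, with 253 CPM per kb in 2D before *Serpinb9b* with 196 CPM per kb, and 174 CPM per kb in 3D before *Serpinb1a* with 91.2 CPM per kb. In adult liver *Serpina6* reached 7371 CPM per kb and *Serpina3k* 4081 CPM per kb, and in fetal liver *Serpina6* reached 1076 CPM per kb and *Serpinf2* 334 CPM per kb.

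By clade, the summed level moved in opposite ways between cultures and liver. Clade A summed to 0.137 to 2.36 CPM in 2D cultures and 0.572 to 3.23 CPM in 3D cultures, against 41650 and 42170 CPM in adult liver and 2863 to 3202 CPM in fetal liver. Clade B summed to 1432 to 1655 CPM in 2D cultures and 670 to 756 CPM in 3D cultures, against 199 and 204 CPM in Fib, 38.8 and 40.2 CPM in adult liver and 70.2 and 71.5 CPM in fetal liver. More than 3 counts in a library were found for 52 members in at least 1 library, for 36 in at least 1 culture library and for 9 in every library. *Serpina3a*, *Serpina3j*, *Serpinb13* and *Serpinb3d* had 0 counts in all 14 libraries, which allows a level of up to 0.0854 to 0.144 CPM in a library (3 counts, counting error only).

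**Figure D2:**
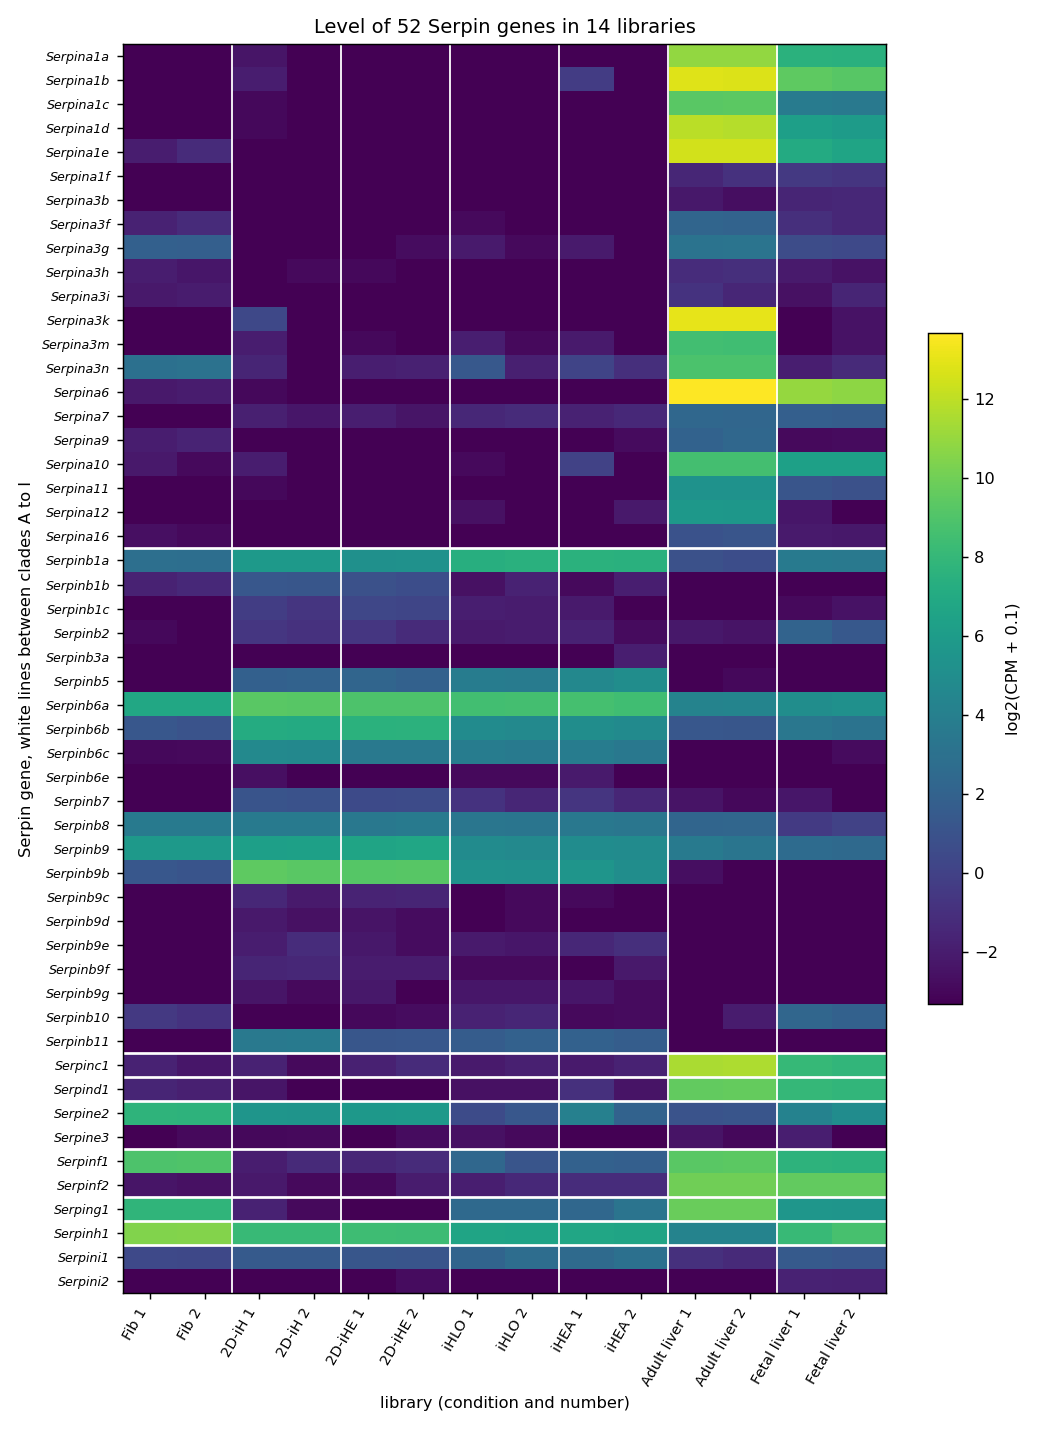
Level of the 52 members with more than 3 counts in at least 1 library, as log2(CPM + 0.1) in colour, with members in rows by clade and the 14 libraries in columns. Clade A is bright in the liver columns and near the floor in the culture columns, and *Serpinb9b*, *Serpinb6a*, *Serpinb6b*, *Serpinb9* and *Serpinb1a* are the brightest of clade B in the culture columns, where many other clade B rows are near the floor.

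The cultures were first compared by method, 3D against 2D, which was fitted with edgeR's quasi-likelihood test over 8 culture libraries with Benjamini-Hochberg adjustment over 13409 genes. Hydrogel, the spheroid stage in hepatic medium, shaking and the third dimension differ together and cannot be told apart. The fit has 1 term per method, so differences between cultures with and without iECs count toward its error. Of the 62 members, 18 passed the filter on low counts and 44 did not, among them 24 of clade A and 15 of clade B. Of the 18, 6 rose and 10 fell in 3D, where 38.7% of all tested genes rose and 37.2% fell. The median log2 fold change was −0.85 over these 18 members and 0.01 over all tested genes. These counts describe the members that had enough reads to be tested, and not the family as a whole.

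Of clade E, *Serpine2*, or protease nexin, an inhibitor of thrombin and urokinase at the cell surface, was at 45.7 and 44.6 CPM in 2D-iHs, 53.0 and 58.0 CPM in 2D-iHEs, 1.39 and 2.36 CPM in iHLOs and 16.7 and 4.04 CPM in iHEAs. The 3D libraries lay below the 2D libraries without overlap but differed widely among themselves. The log2 fold change in 3D was −3.05 (SE 0.5, n = 4 against 4, adjusted p = 0.000171, edgeR), and it ranged from −4.32 to −2.70 over the alternatives. The level was highest in Fib, at 215 and 199 CPM. *Serpine3* had no more than 3 counts in any culture library.

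Urokinase, on which *Serpine2* can act, belongs to the plasminogen system, of which 6 genes were listed. Of these, 4 had enough counts in the cultures, and *Plau* (urokinase), *Plat* (tissue plasminogen activator) and *Plaur* (the urokinase receptor) fell, whereas *Lrp1*, an endocytic receptor that clears protease and serpin complexes, rose. *Plau* had 101 to 190 counts in 2D libraries and 8 to 18 counts in 3D libraries, with a log2 fold change of −3.49 (SE 0.229, adjusted p = 7.66e-08, edgeR). The log2 fold changes were −1.65 for *Plat*, −0.20 for *Plaur* and 1.68 for *Lrp1*. Of 12 listed coagulation genes 4 were tested, of which *F2* (3.63) and *F5* (3.47) rose and *F3* (−2.22), the tissue factor that starts the cascade, fell on the log2 scale.

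The clade B cluster of chromosome 13 held the genes with the highest clade B levels, and its members moved both ways. *Serpinb9b*, a paralog of the granzyme B inhibitor gene *Serpinb9*, was at 692 and 654 CPM in 2D-iHs, 587 and 615 CPM in 2D-iHEs, 38.0 and 37.4 CPM in iHLOs and 46.3 and 32.6 CPM in iHEAs. The 2D and 3D libraries did not overlap, and mean CPM was 16.5-fold higher in 2D. The log2 fold change in 3D was −4.07 (SE 0.102, n = 4 against 4, adjusted p = 4.4e-11, edgeR).

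*Serpinb9* itself was at 78.5 and 80.1 CPM in 2D-iHs, 96.0 and 109 CPM in 2D-iHEs, 28.9 and 25.9 CPM in iHLOs and 30.5 and 28.8 CPM in iHEAs. It fell in 3D without overlap of libraries, with a log2 fold change of −1.69 (SE 0.0958, adjusted p = 2.21e-08, edgeR). The other paralogs of this group were near the floor of counting in 2D, with means of 0.219 ± 0.0581 CPM for *Serpinb9c*, 0.0808 ± 0.0310 CPM for *Serpinb9d*, 0.164 ± 0.127 CPM for *Serpinb9e*, 0.201 ± 0.0678 CPM for *Serpinb9f* and 0.0598 ± 0.0520 CPM for *Serpinb9g* (SD, n = 4). Reads of *Serpinb9e*, *Serpinb9f* and *Serpinb9g* are uncertain, since 10.1% to 23.6% of their 100-base windows also occur in another serpin transcript.

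Of the *Serpinb6* genes, whose human counterpart inhibits cathepsin G and other granule proteases, *Serpinb6b* and *Serpinb6a* fell in 3D and *Serpinb6c* was not called. *Serpinb6b* was at 140 and 134 CPM in 2D-iHs, 183 and 191 CPM in 2D-iHEs, 29.1 and 26.0 CPM in iHLOs and 32.2 and 28.0 CPM in iHEAs. Its 2D and 3D libraries did not overlap, and the log2 fold change in 3D was −2.51 (SE 0.115, adjusted p = 3.63e-09, edgeR). *Serpinb6a*, the most read clade B gene in 3D, was at 629 and 608 CPM in 2D-iHs, 495 and 490 CPM in 2D-iHEs, 371 and 384 CPM in iHLOs and 410 and 356 CPM in iHEAs. It fell by 0.57 on the log2 scale (SE 0.0898, adjusted p = 0.000127, edgeR), again without overlap. *Serpinb6c*, at 25.3, 24.4, 11.7 and 11.7 CPM in the 2D libraries and 11.2 to 13.8 CPM in the 3D libraries, overlapped between the methods and was not called (log2 fold change −0.54, SE 0.250, adjusted p = 0.068, edgeR), whereas within pairs it was called lower in iHLOs against 2D-iHs (−0.95, adjusted p = 1.44e-06, edgeR). With the counts of the *Serpinb6* paralogs summed, the log2 fold change was −0.82.

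*Serpinb1a*, which encodes the inhibitor of neutrophil elastase in the cytosol, went the other way. It was at 55.1 and 56.5 CPM in 2D-iHs, 36.1 and 38.9 CPM in 2D-iHEs, 161 and 178 CPM in iHLOs and 182 and 179.9 CPM in iHEAs. All 3D libraries were above all 2D libraries, mean CPM was 3.75-fold higher and the log2 fold change was 1.88 (SE 0.135, adjusted p = 1.61e-07, edgeR). Its neighbours and paralogs fell: *Serpinb1b* was at 2.33 and 2.19 CPM in 2D-iHs, 1.79 and 1.49 CPM in 2D-iHEs, 0.0694 and 0.214 CPM in iHLOs and 0.0349 and 0.168 CPM in iHEAs, with a log2 fold change of −4.01 (SE 0.361, adjusted p = 1.14e-06, edgeR). *Serpinb1c* was at 0.758 and 0.514 CPM in 2D-iHs, 1.11 and 1.06 CPM in 2D-iHEs, 0.173 and 0.143 CPM in iHLOs and 0.1397 and 0 CPM in iHEAs, with a log2 fold change of −2.83 (SE 0.462, adjusted p = 0.000167, edgeR). Neither paralog overlapped between the methods, and both had few counts. The proteases that these inhibitors are best known to restrain were not read: the 6 listed leukocyte serine protease genes, *Elane* and *Gzmb* among them, had at most 4 counts in any culture library, and none was tested.

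In the clade B cluster of chromosome 1, *Serpinb5* rose. It encodes maspin, a serpin of epithelial cells that does not inhibit serine proteases in the usual way. Its level was 0 in Fib, 3.64 and 3.97 CPM in 2D-iHs, 4.50 and 3.74 CPM in 2D-iHEs, 14.2 and 13.6 CPM in iHLOs and 24.3 and 32.0 CPM in iHEAs. The methods did not overlap, mean CPM was 5.31-fold higher in 3D and the log2 fold change was 2.37 (SE 0.263, adjusted p = 7e-06, edgeR). *Serpinb7*, or megsin, was at 2.00 and 1.85 CPM in 2D-iHs, 1.31 and 1.34 CPM in 2D-iHEs, 0.451 and 0.250 CPM in iHLOs and 0.524 and 0.253 CPM in iHEAs. It fell in 3D without overlap, with a log2 fold change of −2.14 (SE 0.283, adjusted p = 2.99e-05, edgeR). *Serpinb8*, whose product can inhibit furin, was nearly level at 11.2 to 12.7 CPM in 2D and 9.79 to 11.2 CPM in 3D, and fell by 0.27 on the log2 scale (SE 0.0752, adjusted p = 0.00622, edgeR). *Serpinb11* ranged from 2.19 to 12.8 CPM in 2D and from 3.05 to 3.82 CPM in 3D, and was not called over the pooled methods (log2 fold change −1.13, SE 0.522, adjusted p = 0.0689, edgeR).

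Clade B genes of chromosome 1 are known from stratified epithelia, and 6 markers of squamous epithelium were followed beside them. Their summed level was 296 to 358 CPM in 2D and 143 to 222 CPM in 3D, with 1 marker higher (*Ivl*, 2.20 on the log2 scale) and 4 lower, among them *Krt5* (−3.52). The part of these markers in the results for *Serpinb5* and *Serpinb7* was not tested. The 7 leukocyte markers summed to 21.8 to 27.6 CPM over all culture libraries. Most of this came from *Cd68*, with 514 to 826 counts in a library, and 5 or 6 of the 7 had no more than 3 counts. The 4 listed cathepsin genes, which several clade B serpins can restrain, moved with *Ctss* (6.81), *Ctsb* (1.36) and *Ctsl* (0.39) higher and *Ctsk* (−1.22) lower in 3D on the log2 scale. The listed membrane serine proteases of epithelia that were tested all rose, with log2 fold changes of 4.27 for *Tmprss2*, 3.20 for *St14* and 2.78 for *Prss8*.

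**Figure D3:**
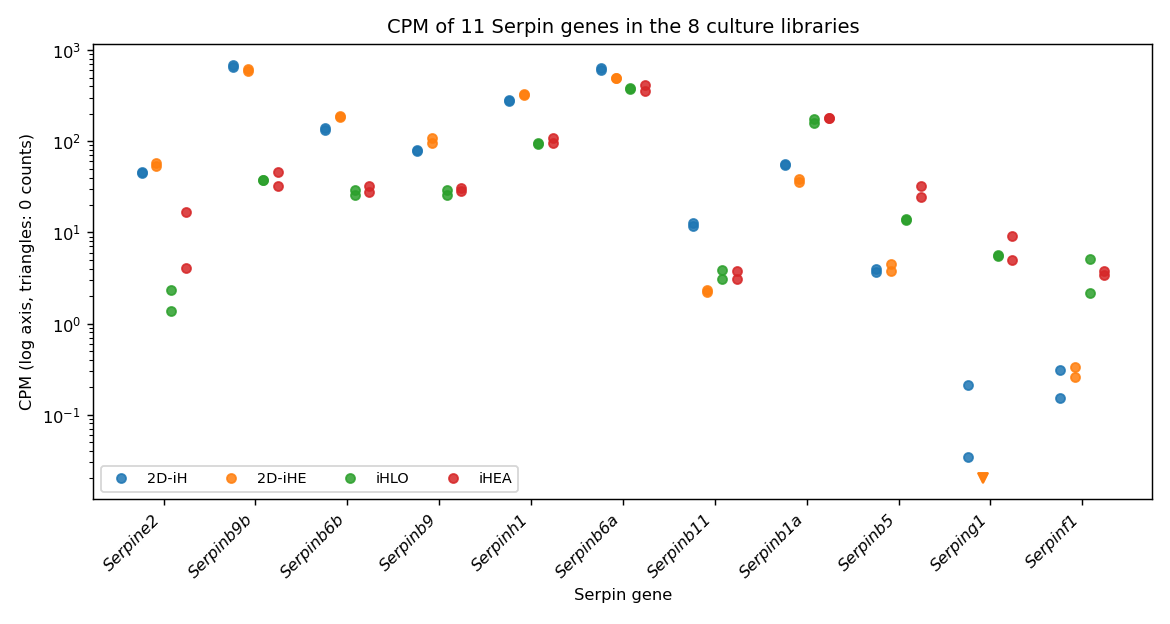
Level of 11 members in each of the 8 culture libraries, in CPM on a log axis, with 1 point per library and triangles for 0 counts. *Serpinb9b* drops from between 587 and 692 CPM in 2D to at most 46.3 CPM in 3D, and *Serpinb1a* and *Serpinb5* lie higher in all 4 3D libraries than in any 2D library.

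*Serpinh1* (chr7:99345376-99353239, − strand), which encodes the collagen chaperone HSP47, was at 276 and 284 CPM in 2D-iHs, 333 and 318 CPM in 2D-iHEs, 96.0 and 94.4 CPM in iHLOs and 107 and 95.8 CPM in iHEAs. The methods did not overlap and the log2 fold change in 3D was −1.64 (SE 0.0627, adjusted p = 8.79e-10, edgeR). Of 9 listed collagen and collagen folding genes 6 were tested, and 5 of them fell, with log2 fold changes of −2.65 for *Col1a1*, −1.48 for *Col4a2*, −1.19 for *Col4a1*, −0.85 for *P4ha1* and −0.65 for *Plod2*. *P4hb*, a subunit of prolyl hydroxylase that also works as a disulfide isomerase, rose by 0.34. Fib were far above every culture in *Serpinh1*, at 1397 and 1480 CPM.

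*Serping1* (chr2:84765387-84775444, − strand) encodes the C1 inhibitor of complement and rose most. It was at 0.212 and 0.0343 CPM in 2D-iHs, 0 CPM in both 2D-iHEs, 5.44 and 5.61 CPM in iHLOs and 4.96 and 9.09 CPM in iHEAs. The methods did not overlap, and with 0 counts in the 2D-iHEs the iHEA level was at least 128-fold higher (floor of 3 counts over the 2 libraries). The fitted log2 fold change in 3D was 6.42 (SE 0.493, adjusted p = 2.91e-07, edgeR), and it ranged from 5.93 to 8.57 over the alternatives. Of 6 listed C1 and MASP protease genes 5 were tested, and *C1ra* alone was called, with a log2 fold change of 2.38 (SE 0.290, adjusted p = 1.5e-05, edgeR). Even in 3D *Serping1* stayed far below adult liver, at 889 CPM in both libraries, and Fib, at 222 and 224 CPM.

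*Serpinf1*, or pigment epithelium-derived factor, which limits the growth of vessels, was at 0.152 and 0.308 CPM in 2D-iHs, 0.256 and 0.336 CPM in 2D-iHEs, 5.06 and 2.18 CPM in iHLOs and 3.77 and 3.41 CPM in iHEAs. The methods did not overlap and the log2 fold change was 3.78 (SE 0.325, adjusted p = 7.78e-07, edgeR). Its level was 490.2 and 516 CPM in Fib and 629 and 672 CPM in adult liver. Of the 8 fibroblast markers, 4 were tested, and *Pdgfra* (3.04) and *Pdgfrb* (4.87) rose in 3D on the log2 scale, whereas *Col1a1* (−2.65) fell and *Dcn* (0.54) was not called. In iHLO 1 against iHLO 2, *Serpinf1* had 146 and 61 counts, *Pdgfra* 209 and 73 counts and *Dcn* 61 and 14 counts. The 8 markers summed to 4.18 to 13.9 CPM in 2D and 5.22 to 13.5 CPM in 3D, with *Col1a2*, *Lum* and *Thy1* at 0 counts in all 4 3D libraries, and the part of these markers in the results for *Serpinf1* and *Serping1*, both high in Fib, was not tested. *Serpini1*, or neuroserpin, an inhibitor of tissue plasminogen activator, rose from 2.73 and 2.67 CPM in 2D-iHs and 2.22 and 2.16 CPM in 2D-iHEs to 4.27 and 6.50 CPM in iHLOs and 5.90 and 7.62 CPM in iHEAs, with a log2 fold change of 1.28 (SE 0.177, adjusted p = 4.47e-05, edgeR). *Serpini2* and *Serpine3* did not pass the filter.

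The clade A genes, the class that hepatocytes secrete, were barely read in any culture. More than 3 counts were found for 7 of 25 members in any culture library, and the clade summed to 78 counts in 2D-iH 1, 4 in 2D-iH 2, 14 and 7 in 2D-iHEs, 93 and 16 in iHLOs and 90 and 20 in iHEAs. The 2 libraries of a condition were far apart in most conditions, and *Alb*, the albumin gene, had 210 and 9 counts in 2D-iHs, 3 and 2 in 2D-iHEs, 3 and 16 in iHLOs and 20 and 4 in iHEAs, against 8113083 and 7888792 in adult liver. Other hepatocyte genes differed from *Alb*. *Ttr* had 31 to 89 counts in 2D libraries and 2252 to 2924 counts in 3D libraries, and *Tat* had 1 to 11 and 43 to 538 counts. *Serpina3n*, an acute phase antichymotrypsin gene, was the most read clade A member in the cultures, and it rose in 3D with overlapping libraries. It was at 0.242 and 0 CPM in 2D-iHs, 0.171 and 0.192 CPM in 2D-iHEs, 2.50 and 0.179 CPM in iHLOs and 1.01 and 0.379 CPM in iHEAs (log2 fold change 2.71, SE 0.840, adjusted p = 0.0119, edgeR). Without iHLO 1 or without iHEA 1 it did not pass the filter on low counts, and the *Serpina3* paralogs summed were not called (log2 fold change 1.07, SE 0.877, adjusted p = 0.287, edgeR). *Serpina7*, the thyroxine carrier, was at 0.138 ± 0.0447 CPM in 2D and 0.276 ± 0.0477 CPM in 3D (SD, n = 4) and was not tested. The *Serpina1* genes encode alpha1-antitrypsin, which the study used as a hepatic marker, and of them only *Serpina1b* exceeded 3 counts in a culture library.

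**Figure D4:**
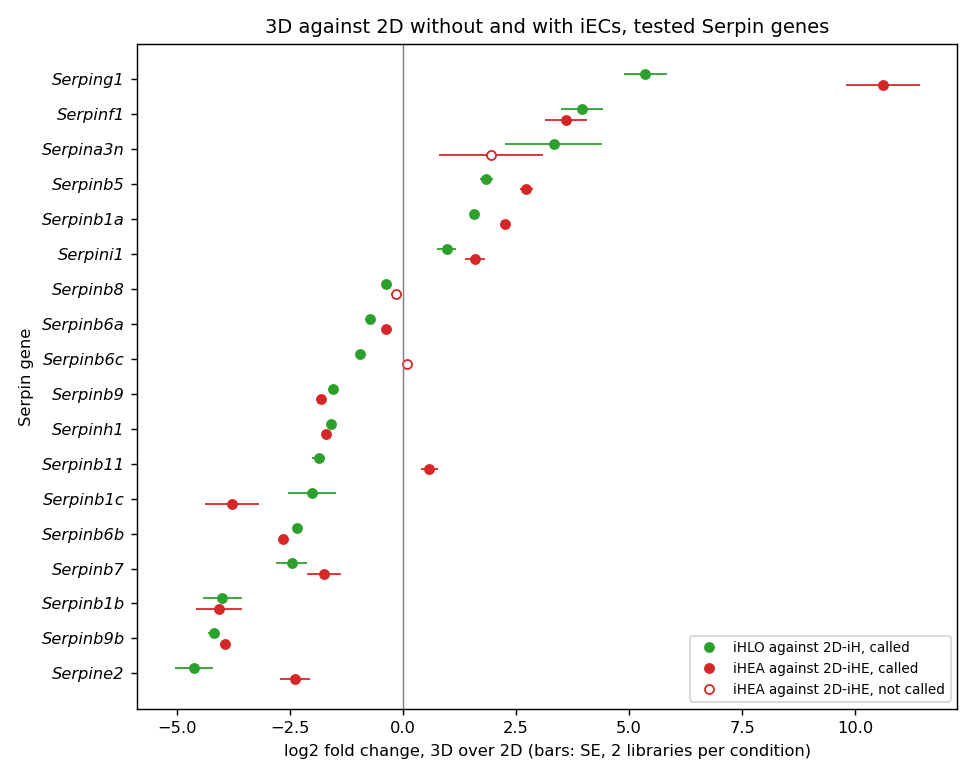
Log2 fold change with SE (horizontal axis) of the 18 tested members for iHLOs against 2D-iHs and for iHEAs against 2D-iHEs. Filled points passed an adjusted p of 0.05. *Serpinb9b* and *Serpinb1b* lie far to the left in both contrasts and *Serping1* far to the right, and *Serpinb11* lies on opposite sides of 0. The iHEA point of *Serping1* is a fitted value against 0 counts.

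The same contrast was made within each pair of cultures. In iHLOs against 2D-iHs, 6 of 18 tested members rose and 12 fell, where 36.9% of all genes rose and 35.3% fell. In iHEAs against 2D-iHEs, 6 rose and 9 fell, where 36.0% of all genes rose and 34.9% fell, and *Serpina3n*, *Serpinb6c* and *Serpinb8* were not called. The call for *Serpina3n* in iHLOs against 2D-iHs (3.33, adjusted p = 0.0132, edgeR) was lost without 2D-iH 2 (2.42, adjusted p = 0.0937) and in DESeq2's Wald test (3.42, adjusted p = 0.0694), and the value was 8.22 without 2D-iH 1, which leaves 0 counts in 2D-iHs, and 4.23 without iHLO 2. *Serpinb11* fell in iHLOs against 2D-iHs by 1.86 on the log2 scale (SE 0.148, adjusted p = 1.17e-07, edgeR) and rose in iHEAs against 2D-iHEs by 0.58 (SE 0.183, adjusted p = 0.0122, edgeR). The second call was lost without 2D-iHE 1 (0.53, adjusted p = 0.0844) and without iHEA 1 (0.43, adjusted p = 0.0988). *Serpinb9b* fell by 4.18 (SE 0.115) in the first contrast and by 3.94 (SE 0.114) in the second.

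Co-culture with iECs was compared within each method. In iHEAs against iHLOs, the comparison behind the assembloid, 2 of 18 tested members were called, both higher, where 1.19% of all genes rose and 1.07% fell. *Serpinb5* rose from 14.2 and 13.6 CPM to 24.3 and 32.0 CPM, a log2 fold change of 1.00 (SE 0.122, n = 2 against 2, adjusted p = 0.00106, edgeR), without overlap and in every alternative. The 6 squamous markers summed to 163 and 143 CPM in iHLOs and 222 and 188 CPM in iHEAs. *Epcam*, an epithelial marker, had 6905 and 6900 counts and 9732 and 9469 counts. The part of these markers in the result was not tested.

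*Serpine2* was called higher in iHEAs, with a log2 fold change of 2.50 (SE 0.521, adjusted p = 0.0289, edgeR). The iHEA libraries were far apart, with 477 and 96 counts of *Serpine2*, and the call was lost without iHLO 1 (log2 fold change 2.17, adjusted p = 0.277, edgeR) and without iHLO 2 (2.92, adjusted p = 0.146), while the log2 fold change was 1.09 without iHEA 1 and 3.14 without iHEA 2. In the same 2 libraries *Tat* had 538 and 62 counts, *C1s1* 538 and 39 counts, *Sox9* 163 and 60 counts and *Col1a1* 24 and 9 counts, and their part in the result was not tested. The other 16 members had log2 fold changes of −1.04 to 0.31 and were not called. Of the listed partners, *St14* (1.19), *Tmprss2* (0.35), *F3* (0.48) and *Ctss* (0.46) rose in iHEAs, none of the 4 tested plasminogen genes was called, and *Col1a1*, *P4ha1* and *Plod2* of the collagen and collagen folding list fell, whereas *Col4a1* and *Col4a2* were not called. *Habp2* of the coagulation list (*Fsap* in the study) had 6 and 4 counts in iHLOs and 70 and 34 counts in iHEAs. It did not pass the filter and was not tested.

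In 2D, 2D-iHEs against 2D-iHs, 2 of 18 tested members rose and 4 fell, where 4.26% of all genes rose and 3.92% fell, and all 6 were clade B genes, as were 12 of the 18 tested members. *Serpinb11* was at 11.8 and 12.8 CPM in 2D-iHs and 2.19 and 2.35 CPM in 2D-iHEs, 5.41-fold lower with no overlap (log2 fold change −2.47, SE 0.159, n = 2 against 2, adjusted p = 2.86e-06, edgeR). *Serpinb6c* went from 25.3 and 24.4 CPM to 11.7 and 11.7 CPM (log2 fold change −1.11, SE 0.0991, adjusted p = 4.57e-05, edgeR). *Serpinb1a* (−0.60) and *Serpinb6a* (−0.36) also fell, and *Serpinb6b* (0.42) and *Serpinb9* (0.34) rose on the log2 scale. The call for *Serpinb6a* was lost without 2D-iH 1, 2D-iHE 1 or 2D-iHE 2, with log2 fold changes of −0.37 to −0.33 and an adjusted p of up to 0.0632. The call for *Serpinb9* was lost without 2D-iH 1, 2D-iH 2 or 2D-iHE 2, with log2 fold changes of 0.26 to 0.36 and an adjusted p of up to 0.107. With the *Serpinb6* paralogs summed the log2 fold change was −0.20 (adjusted p = 0.0681, edgeR). The 6 squamous markers summed to 343 and 358 CPM in 2D-iHs and 315 and 296 CPM in 2D-iHEs. The 8 fibroblast markers summed to 4.18 and 4.52 CPM and 13.9 and 12.3 CPM. The part of these markers in the calls was not tested.

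The difference between the co-culture effects, in 3D minus in 2D, was tested as an interaction, and 4 of 18 members were called, all higher, where 1.52% of all genes were higher and 1.62% lower. The difference was 2.44 on the log2 scale for *Serpinb11* (SE 0.236, adjusted p = 0.000204, edgeR), which was lower with iECs in 2D and at 3.05 to 3.82 CPM in all 3D libraries. It was 1.03 for *Serpinb6c* (adjusted p = 0.00252) and 0.68 for *Serpinb1a* (adjusted p = 0.00103, edgeR for both). For *Serpinb5* it was 0.88 with an adjusted p of 0.0476 (edgeR), which passed in 8 of 15 alternatives. It was lost without any 1 of the 4 2D libraries or the 2 iHLO libraries, with differences of 0.78 to 1.06 and an adjusted p of up to 0.179. Endothelial markers summed to 473 to 528 CPM in 2D, 1399 to 1568 CPM in iHLOs, which had no iECs, and 1037 to 1098 CPM in iHEAs. Most came from *Cdh5*, with 9451 to 16261 counts in a culture library, and in 3D also from *Vwf*, with 11946 to 25206 counts, and *Tek*, with 2252 to 3906 counts. *Pecam1* had 2 to 22 counts and *Emcn* 0 to 2 counts, and *Kdr* had 10 to 25 counts in 2D and 0 to 4 in 3D. The list holds mouse genes, whereas the added cells were human.

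**Figure D5:**
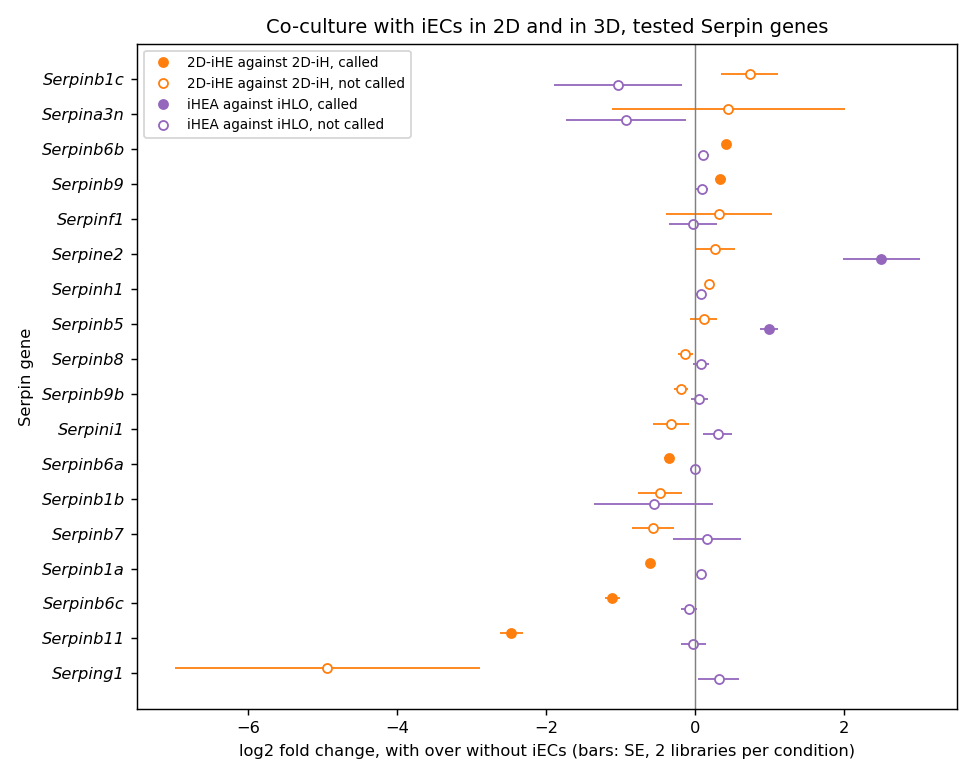
Log2 fold change with SE (horizontal axis) of the 18 tested members with iECs against without, for 2D (2D-iHEs against 2D-iHs) and 3D (iHEAs against iHLOs). Filled points passed an adjusted p of 0.05. *Serpinb11* and *Serpinb6c* are called lower in 2D (−2.47 and −1.11), and *Serpine2* and *Serpinb5* are called higher in 3D (2.50 and 1.00).

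2D-iHs were compared with Fib, their fibroblast origin. Of 29 members that passed the filter over 14 libraries, 12 rose and 9 fell in 2D-iHs against Fib, where 45.7% of 14121 genes rose and 38.2% fell. *Serpinb9b* went from 2.36 and 2.03 CPM in Fib to 692 and 654 CPM in 2D-iHs, 307-fold (log2 fold change 8.23, SE 0.168, n = 2 against 2, adjusted p = 3.08e-15, edgeR). *Serpinb6b* was 64.5-fold higher (2.30 and 1.95 CPM in Fib) and *Serpinb6a* 5.23-fold higher (119 and 118 CPM in Fib), and both were called. With 0 counts in Fib, 2D-iHs were at least 248-fold higher in *Serpinb11*, at least 76.8-fold in *Serpinb5*, at least 39.0-fold in *Serpinb7* and at least 13.01-fold in *Serpinb1c*. *Serpinb6c* was 754-fold higher (95% counting interval 208 to 6233).

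The members with the largest shares in Fib were lower in 2D-iHs. *Serpinf1* was at 490.2 and 516 CPM in Fib against 0.152 and 0.308 CPM in 2D-iHs (log2 fold change −11.11, SE 0.244, adjusted p = 1.37e-15, edgeR), and *Serping1* at 222 and 224 CPM against 0.212 and 0.0343 CPM (−10.73, SE 0.263, adjusted p = 2.13e-14). Without 2D-iH 1 the value for *Serping1* was −12.50 and without 2D-iH 2 it was −10.01. *Serpinh1* was 5.14-fold and *Serpine2* 4.58-fold lower in mean CPM, and both were called. The 8 fibroblast markers summed to 29530 and 31220 CPM in Fib and 4.18 to 13.9 CPM in all cultures. The calls for *Serpina1e*, *Serpina6* and *Serpind1*, lower in 2D-iHs, rested on at most 9 counts in a library. *Serpina1e* (−5.68) was lost without Fib 2 (−5.10, adjusted p = 0.0628, edgeR). *Serpina6* (−2.74) was lost without Fib 1 (−2.88, adjusted p = 0.0847), Fib 2 (−2.63, adjusted p = 0.111) or 2D-iH 2 (−1.97, adjusted p = 0.152), and was −4.86 without 2D-iH 1. *Serpind1* (−2.07) was lost without Fib 1 (−1.84, adjusted p = 0.176), Fib 2 (−2.26, adjusted p = 0.068) or 2D-iH 2 (−1.20, adjusted p = 0.236), and was −5.54 without 2D-iH 1. *Serpina3k* was called higher in 2D-iHs, but its 40 counts were in 2D-iH 1 alone and the adjusted p was 0.274 in DESeq2.

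In liver the secreted classes dominated, and they were higher in the adult than in the fetus. Of 29 tested members 19 were higher and 6 lower in adult than in fetal liver, where 40.0% of all genes were higher and 43.8% lower. The 11 tested clade A members were all higher, but most had passed the filter through their liver reads, so the count is no support for a direction. The other 14 clade A members were not tested, among them *Serpina3m*, with 25194 counts over the adult and 2 over the fetal libraries (ratio 9816, 95% counting interval 2717 to 81060). Fitted values depend on the scaling here: the median log2 fold change of all genes was −0.10 with TMM scaling and −1.52 with scaling by total count alone, so CPM folds are given first. *Serpina6*, which carries glucocorticoids in plasma, was at 12900 and 13060 CPM in adult and 1990 and 1799 CPM in fetal liver, 6.85-fold (log2 fold change 4.23, SE 0.109, n = 2 against 2, adjusted p = 7.81e-13, edgeR).

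The *Serpina1* genes gave different folds, which were not tested against each other. *Serpina1b* was at 7218 and 6923 CPM in adult and 717 and 623 CPM in fetal liver, and *Serpina1a* at 1914 and 1950 CPM against 183 and 175 CPM, 10.5-fold and 10.8-fold. *Serpina1e* was at 5806 and 5839 CPM against 131 and 99.4 CPM, *Serpina1d* at 3912 and 3551 CPM against 78.6 and 63.6 CPM and *Serpina1c* at 643 and 660 CPM against 13.2 and 11.5 CPM, which is 50.5-fold, 52.5-fold and 52.7-fold. *Serpina1f* was near the floor of counting, at 0.262 and 0.428 CPM in adult and 0.593 and 0.513 CPM in fetal liver, and was not tested. Reads of the other 5 are uncertain between paralogs, since 13.8% to 58.5% of their 100-base windows occur in another serpin transcript, and *Serpina1d* lies inside the span of *Serpina1b*. The sum of the *Serpina1* genes had a log2 fold change of 5.65 (SE 0.227, adjusted p = 1.9e-11, edgeR).

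*Serpina3k*, a kallikrein-binding serpin gene, was at 8445 and 8344 CPM in adult liver and 0 and 0.0789 CPM in fetal liver, and *Serpina3n* at 458 and 460 CPM and 0.174 and 0.315 CPM. *Serpina3k* and *Serpina3m* share an annotated start, so reads of the pair may be split between them. *Serpinc1* (antithrombin) was 12.1-fold, *Serpina10* (the inhibitor of coagulation factor X that acts with protein Z) 4.75-fold, *Serpind1* (heparin cofactor) 3.31-fold and *Serpinf2* (the plasmin inhibitor) 1.33-fold higher in adult liver in mean CPM, and all 4 were called. In DESeq2's Wald test the call was lost for *Serpina10* (log2 fold change 3.82, adjusted p = 0.0588) and for *Serpina1b* (4.97, adjusted p = 0.201). *Serpinc1* was at 2960 and 3058 CPM in adult and 266 and 229 CPM in fetal liver, with 1 to 7 counts in each culture library. *Serpind1* was at 786 and 800.0 CPM in adult and 251 and 228 CPM in fetal liver, with 0 to 12 counts in each culture library. *Serpinf2* was at 1021 and 1039 CPM in adult and 788 and 764 CPM in fetal liver, the smallest difference of these. *Serping1* was at 889 CPM in both adult and 47.9 and 45.5 CPM in fetal liver. All 11 coagulation partners that were tested were higher in adult liver, but most had passed the filter through their liver reads, since 4 passed it in the cultures, so the count is no support for a direction.

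The 6 members called lower in adult liver were of clades H, E, B and I. *Serpinh1* was at 19.5 and 19.3 CPM in adult and 279 and 416 CPM in fetal liver (log2 fold change −2.71, SE 0.136, adjusted p = 2.48e-11, edgeR), and 8 of 9 listed collagen folding genes were lower too. *Serpine2*, *Serpinb2*, *Serpinb1a*, *Serpini1* and *Serpinb6b* were also lower, by amounts that depend on the scaling. Their log2 fold changes were −2.15, −3.58, −1.46, −1.39 and −0.64 with TMM and −3.57, −4.96, −2.88, −2.80 and −2.06 with total counts, in the same order. For *Serpinb6b* the levels were 2.36 and 2.23 CPM in adult and 10.6 and 8.87 CPM in fetal liver. *Serpinb6a* was called higher with TMM scaling (0.65) and was lower with total count scaling (−0.78), with 19.4 and 20.4 CPM in adult and 32.5 and 37.1 CPM in fetal liver. The 8 fibroblast markers summed to 2101 and 3558 CPM in fetal and 215.4 and 205.5 CPM in adult liver, and the 7 leukocyte markers to 346 and 297 CPM and 36.5 and 35.9 CPM. The 3 platelet markers summed to 273 and 311 CPM and the 5 erythroid markers to 18520 and 19260 CPM in fetal liver. The part of these markers in these results was not tested.

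Set beside adult liver, iHEAs had almost no reads of the plasma class and far more of the cytosolic class. Of 29 tested members 9 were higher and 17 lower in iHEAs, where 45.6% of all genes were higher and 39.2% lower, and with total count scaling 12 were higher and 16 lower. The 11 tested clade A members, most of them tested through their liver reads, were all lower. Adult liver was at least 226700-fold higher in *Serpina6*, 146600-fold in *Serpina3k*, 101700-fold in *Serpina1e*, 65120-fold in *Serpina1d*, 33740-fold in *Serpina1a* and 11370-fold in *Serpina1c*, each against 0 counts in iHEAs. *Serpinc1* was 17180-fold and *Serpinf2* 3002-fold higher in adult liver. The 8 hepatocyte markers summed to 525 to 644 CPM in the cultures and 244200 and 255500 CPM in adult liver. Most of the culture sum came from *Apoa1*, with 5697 to 12149 counts in a culture library, and from *Hnf4a*, the factor delivered to make the iHepSCs, with 4117 to 7670 counts, while up to 5 of the 8 markers had no more than 3 counts in a culture library. The 5 cholangiocyte markers summed to 1236 to 1770 CPM in the cultures.

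The members higher in iHEAs included *Serpinb1a*, at 182 and 179.9 CPM against 1.72 and 1.49 CPM in adult liver (log2 fold change 5.31, SE 0.0997, n = 2 against 2, adjusted p = 1.23e-16, edgeR), and *Serpinb6a*, at 410 and 356 CPM against 19.4 and 20.4 CPM (2.76, SE 0.0801, adjusted p = 2.39e-14). *Serpinb6c* was at least 292-fold and *Serpinb11* at least 79.4-fold higher in iHEAs, against 0 counts in adult liver. *Serpinb9b* had 2 counts in adult liver, where the iHEA level was 1390-fold higher (95% counting interval 384 to 11480), and 0 counts in fetal liver, where it was at least 722-fold higher. These folds and bounds rest on library totals, and those against adult liver would be smaller under TMM. The median log2 fold change of all genes in iHEAs against adult liver was 0.125 with TMM and 1.58 with total count. The fitted log2 fold change of *Serpinb9b* there was 8.84 with TMM. *Serpinb8* and *Serpinb9* also changed sign with the scaling, with log2 differences from adult liver of −0.29 and −0.04 under TMM and 1.17 and 1.41 under total count.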

How the data were processed

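RNA of 14 libraries was sequenced as paired reads, and the authors trimmed them with Trimmomatic 0.36, aligned them to the mouse genome (mm10, which is GRCm38) with HISAT2 and counted reads per gene with HTSeq. The deposited values are raw counts per gene and library. Annotation release, strand setting and treatment of reads with several positions are not given in the sources used here. Library totals were 20851489 to 35143325 counts, so 3 counts, taken as the floor of counting, were 0.0854 to 0.144 CPM. Intervals and floors cover counting error only.

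Counts were tested with edgeR 4.0.16 in R 4.3.3 (TMM scaling, quasi-likelihood test, 1 term per condition, but 1 term per method for 3D against 2D), with a call at a Benjamini-Hochberg adjusted p under 0.05 over all tested genes. The filter kept genes whose log2(count + 1) averaged 3 or more, 13409 over the 8 culture libraries and 14121 over all 14 libraries. Comparisons with Fib or liver used the second fit. SE is the log2 fold change divided by the root of its F statistic. CPM per kb used merged GENCODE exons. CPM is counts per 1000000 of the library total. Libraries of a condition differed by more than counting noise, with a chi-square per gene of 3.05 to 13.4, and none was a copy of another.

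Values in every library of a comparison were given for members that were called in a culture comparison, without overlap and by 1 or more on the log2 scale, the most read member of each clade in the cultures, the 5 with the highest level in each liver, and the *Serpina1* genes. Others were given by range, and members named outside this rule were chosen after their values were seen. A member of the family is not reported here and is left out of the counts, sums and shares of members, but stayed in the fits. The members, partner lists and marker lists were chosen with earlier results of these data known. Alternatives were another filter or none, DESeq2 size factors, total counts, the DESeq2 1.42.0 Wald test, summed paralogs, other sets of libraries, leaving out each library and a replicate block. In the conditions other than iHEAs, deviations of libraries with the same number correlated by −0.0926 to 0.0603, so the numbers do not pair those libraries. The iHEAs were not included.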

Additional observations from a re-analysis of the deposited data

Results flagged for a closer look

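In groups of 4 libraries, 4 of 36 tested member values had 1 library far from the other 3, where chance alone flags about 1.8. *Serpinb8* was 11.2 CPM in 2D-iHE 1 against 12.5 to 12.7 CPM in the other 2D libraries. *Serping1* was 0.212 CPM in 2D-iH 1 against 0 to 0.0343 CPM in the other 2D libraries. In 3D, *Serping1* was 9.09 CPM in iHEA 2 against 4.96 to 5.61 CPM in the others, and *Serpinh1* was 107 CPM in iHEA 1 against 94.4 to 96.0 CPM in the others.

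The effect of co-culture differed between 3D and 2D by the interaction test for 4 members. The differences on the log2 scale, 3D minus 2D, were 2.44 for *Serpinb11*, 1.03 for *Serpinb6c*, 0.88 for *Serpinb5* and 0.68 for *Serpinb1a*.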

How the results depend on the processing

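For 133 results of members that were called, 1566 values under alternatives kept direction and call in 1531 cases, lost the call in 33 and reversed in 2. A value was counted only where the member itself was still tested. A member that fell below the filter or was replaced by a sum of paralogs was not counted as lost. With no filter the count of called members was 26 for 3D against 2D, 4 for iHEAs against iHLOs, 11 for 2D-iHEs against 2D-iHs, 10 for the co-culture difference and 33 for 2D-iHs against Fib. These fits tested 52 or 58 members, many with almost no counts. With the stricter filter the counts were 10 for 3D against 2D, 16 for adult against fetal liver and 16 for iHEAs against adult liver, as fewer members were tested. Summing paralogs left 2 calls for 2D-iHEs against 2D-iHs. Leaving out each library of a comparison gave 16 to 18 calls for 3D against 2D, 17 to 19 for iHLOs against 2D-iHs, 13 to 16 for iHEAs against 2D-iHEs, 1 to 3 for iHEAs against iHLOs (1 without iHLO 1 or iHLO 2), 4 to 5 for 2D-iHEs against 2D-iHs, 3 to 8 for the co-culture difference (8 without iHEA 1, 7 without iHEA 2), 18 to 19 for 2D-iHs against Fib, 22 to 23 for adult against fetal liver and 23 to 26 for iHEAs against adult liver. An arm left with 1 library was assumed to vary like the others. The 2 called values that reversed, both under total counts, were *Serpinb6a* in adult against fetal liver (−0.78) and *Serpinb8* in iHEAs against adult liver (1.17), where *Serpinb9*, not called with TMM, became 1.41. The all-gene median moved to −1.52 and 1.58 there. DESeq2 gave no adjusted p for *Serpine2* in 3D against 2D.

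The replicate block gave 10 calls for 2D-iHEs against 2D-iHs, and the same numbered libraries without the block also gave 10, so leaving out iHEA 2, a library of the shared fit whose number could not be matched and which is outside this comparison, moved the count, not the block. With the block there were 17 calls for 3D against 2D, 19 for iHLOs against 2D-iHs, 21 for 2D-iHs against Fib and 25 for adult against fetal liver. The block was not fitted for iHEAs against 2D-iHEs, iHLOs or adult liver, nor for the co-culture difference. The iHEAs share fewer than 2 replicate numbers with the other conditions of these comparisons, and the effect of a block there was not tested.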
